A study of Mus musculus with 9 samples.

Results

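The genes described here encode 10 enzymes that make serine and glycine and pass their carbon to folate: Tdh, Phgdh, Psat1, Psph, Shmt1, Shmt2, Mthfd1, Mthfd2, Mthfd1l and Gldc. They were taken by symbol from a table of gene counts with 23366 rows. All 10 had a row, and all 10 were among the 14988 genes that passed a filter on low counts and were tested. RNA was sequenced from mouse embryonic stem cells of strain 129 SvJae F1 at passage 21, cultured in DMEM with 10% fetal bovine serum, leukaemia inhibitory factor (LIF), glutamine, antibiotics and beta-mercaptoethanol. The series has 9 samples in 3 groups of 3: wild type, Sirt6 knockout, and wild type deprived of glucose. The comparison is of 3 wild-type with 3 knockout libraries; samples deprived of glucose were not analysed here. Sirt6 encodes a histone deacetylase, and the title of the series names control of transcription elongation through pausing near promoters. The labels do not say whether a group is 1 clone or whether replicates were separate cultures, so each p-value reflects sample-to-sample spread that could be technical in origin.

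Serine is made from a glycolytic intermediate in a short chain of reactions, and serine hydroxymethyltransferase then splits it into glycine and a one-carbon unit carried by tetrahydrofolate. This happens in parallel in the cytosol and in the mitochondrion, and the mitochondrial branch exports formate for purine and thymidylate synthesis. Mouse embryonic stem cells are known for a further source of glycine, the mitochondrial breakdown of threonine by threonine dehydrogenase, on which their growth depends. The glycine cleavage system, also mitochondrial, takes glycine apart and gives another one-carbon unit.

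In the knockout, transcripts for the threonine route and for glycine decarboxylase were higher, those for 3 mitochondrial folate enzymes were lower, and none of the 3 serine synthesis transcripts passed the test. Gldc rose 3.06-fold and Tdh 1.47-fold. Mthfd2, Shmt2 and Mthfd1l fell 1.63-fold, 1.51-fold and 1.48-fold. Of the 10 genes, 2 rose, 3 fell and 5 did not pass at an adjusted p under 0.05 (edgeR quasi-likelihood test, Benjamini-Hochberg over all 14988 genes). Over all genes tested, 27.9% were called higher and 27.8% lower, 55.7% in all, so a count of 5 in 10 lies near the background of this comparison. The median log2 fold change was 0.08 over the 10 genes and 0.01 over all genes tested. Their median size of change, regardless of direction, was 0.41 on the log2 scale against 0.44 over all genes tested. Without knockout replicate 1, which differed most from the other knockout libraries, 3 rose and 3 fell.

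Total counts ran from 20107037 to 29267115 per library. Sirt6 itself, the check of the labels, had 348, 341 and 342 counts in wild type and 12, 6 and 6 in the knockout. Kdm5d, on the Y chromosome, was at 0 counts in each wild-type library and at 94, 65 and 32 in the knockout libraries. For the group differences described below, an effect of the knockout and a difference between cell lines cannot be told apart. Of 10 embryonic stem cell markers 3 were higher and 4 lower, and their summed level was 6279 to 6854 CPM (counts scaled to library size, with TMM factors) in wild type and 6593 to 8179 CPM in the knockout. The sum hides opposite moves in the mean CPM of the groups. Dppa5a (1212 to 2054), Tdgf1 (793 to 1468) and Sox2 (324 to 428) were higher in the knockout. Pou5f1 (1651 to 1199), Nanog (365 to 292), Sall4 (414 to 217) and Utf1 (105 to 67.5) were lower. Markers of other cells moved with the groups too. Of 13 fibroblast markers, 9 were tested, of which 7 rose and 1 fell. The list summed to 21.4 to 22.4 CPM in wild type and 50.7 to 53.2 CPM in the knockout. Within it Tagln alone went from 2.21 to 21.7 CPM in the group means, while Pdgfra fell from 4.17 to 0.892 CPM. Fbn1 did not pass, and Col3a1, Dcn and Postn were too scarce to be tested. Lum was at 0 counts in every library. Of 10 primitive endoderm markers, 9 were tested and 9 fell, from 395 to 432 CPM down to 106 to 164 CPM. Of 10 markers of differentiated lineages, 9 were tested, of which 4 rose and 2 fell, with sums of 101 to 104 and 177 to 195 CPM. This sum hides opposite moves as well. In the group means Tubb3 went from 59.3 to 126 CPM, while the 2 that fell were Pax6 (6.55 to 0.914) and Sox1 (16.2 to 4.36). The part of all these markers in the changes below was not tested. In bulk RNA, fewer cells expressing a gene and less RNA per cell cannot be told apart.

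Among the 10 genes, levels per kilobase of annotated exon put Tdh first in both groups, at 205 ± 5.88 CPM per kb (wild type) and 303 ± 17.3 CPM per kb (knockout; SD, n = 3). In wild type it was followed by Psat1 (140 ± 4.21), Mthfd1 (125 ± 3.21) and Phgdh (119 ± 6.22), of which Mthfd1 and Phgdh differed by less than their spread. Shmt2 (99.5 ± 2.26), Shmt1 (67.0 ± 0.918), Mthfd2 (61.9 ± 2.59), Mthfd1l (49.6 ± 0.813), Psph (32.1 ± 3.35) and Gldc (17.6 ± 0.0738) came after them. In the knockout, Gldc stood seventh at 53.8 ± 7.43 CPM per kb, above Psph (38.8 ± 6.79), Mthfd2 (37.9 ± 1.90) and Mthfd1l (33.6 ± 4.02), a trio whose ranges over the libraries overlapped. Below Tdh came Mthfd1 (138 ± 14.5), Psat1 (133 ± 7.47) and Phgdh (122 ± 11.8). There Psat1 and Mthfd1 differed by less than their spread, while Mthfd1 and Phgdh were further apart than either SD. Shmt1 (76.0 ± 3.48) was above Shmt2 (66.1 ± 4.30) there, the reverse of wild type. Tdh was above 98.1% of genes tested with a known length in wild type and 98.7% in the knockout, and Gldc above 74.1% and 91.2%. These per-kilobase values rest on exon lengths of a newer annotation than the one used for counting.

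The promoter stretches of the gene with the largest change and of the 3 that fell are shown because those 3 moved together. Each is the 120 bases before the RefSeq transcription start, 5′ to 3′ on the gene's strand in build GRCm38.p6 (the counts were made on mm9), with CCAAT boxes on either strand in capitals.
Gldc, chr19:30175442-30175561, minus strand: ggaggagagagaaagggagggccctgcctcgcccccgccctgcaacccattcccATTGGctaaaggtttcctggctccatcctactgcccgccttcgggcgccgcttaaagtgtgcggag
Shmt2, chr10:127522445-127522564, minus strand: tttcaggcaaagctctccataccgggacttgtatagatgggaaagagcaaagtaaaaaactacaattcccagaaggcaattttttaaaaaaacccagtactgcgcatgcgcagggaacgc
Mthfd2, chr6:83317605-83317724, minus strand: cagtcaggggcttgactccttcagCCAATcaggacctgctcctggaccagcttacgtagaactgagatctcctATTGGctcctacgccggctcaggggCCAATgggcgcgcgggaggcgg
Mthfd1l, chr10:3972955-3973074, plus strand: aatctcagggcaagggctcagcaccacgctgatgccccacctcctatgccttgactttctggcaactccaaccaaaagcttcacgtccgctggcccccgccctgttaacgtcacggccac

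RefSeq promoter windows (250 bases before to 50 after the start) were matched for 9 of the 10 genes, in 10 windows. The 3 promoters of the genes that fell did not share a CCAAT box: Mthfd2 had 3, at positions -96, -47 and -22 from the start, and Shmt2 and Mthfd1l had 0. Gldc had 1, at -66. CCAAT on either strand was found in 7 of the 10 windows (70%), covering 7 of the 9 genes, and in 37.4% of all 32851 windows. This motif was picked after the windows had been searched. The core of the C/EBP-ATF response element, TGATGNAA on either strand, was in 0 of the 10 windows and in 3.97% of all windows. The E-box CACGTG was also in 0 of the 10 and in 7.15% of all. None of these 3 strings of letters contains another, and a match or its lack describes only these windows.

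**Figure D1:**
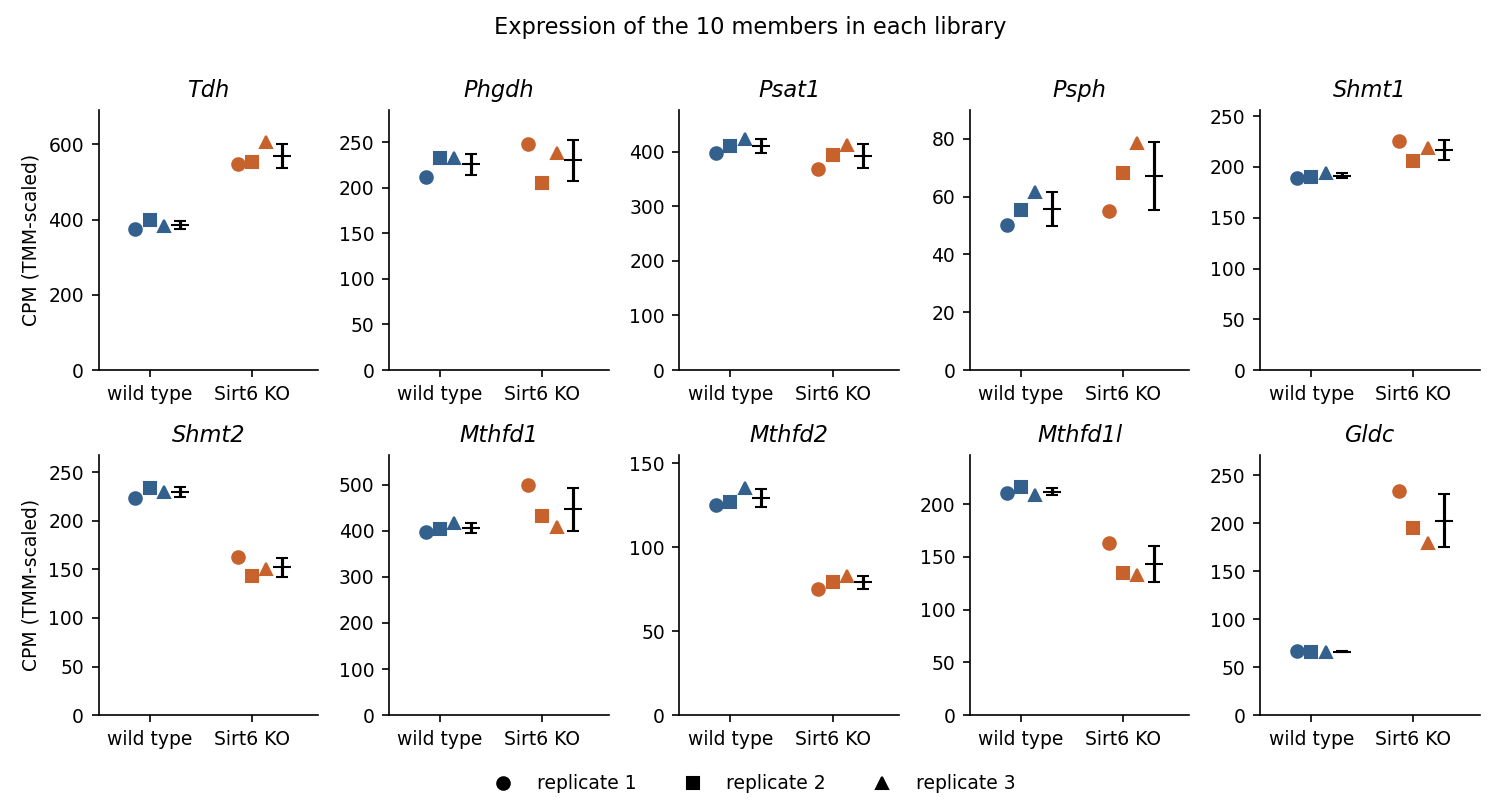
Each panel plots the expression of 1 gene in CPM (y axis, from 0) in the 3 wild-type and 3 knockout libraries (x axis), 1 point per library, with the mean ± SD to the right of each group. The groups are clear of each other for Tdh and Gldc (higher in the knockout) and for Shmt2, Mthfd2 and Mthfd1l (lower). They also do not overlap for Shmt1, which did not pass the test, whereas Phgdh, Psat1, Psph and Mthfd1 overlap. That makes 6 of 10 genes without overlap, against 63.2% of all genes tested.

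Transcripts for both steps of threonine breakdown rose. Tdh encodes threonine dehydrogenase, which oxidises threonine in the mitochondrion. It measured 376, 398 and 384 CPM in wild-type replicates 1 to 3 and 548, 552 and 607 CPM in knockout replicates 1 to 3. The lowest knockout library lay well above the highest wild-type library. The log2 fold change was 0.56 ± 0.10 (SE, n = 3 per group), with an adjusted p of 0.000673 (edgeR). Gcat, which encodes the ligase that converts the product of Tdh to glycine and acetyl-CoA, rose from 59.1, 63.0 and 67.8 CPM to 124, 108 and 132 CPM. Its log2 fold change was 0.94 ± 0.11, with an adjusted p of 2.99e-05 (edgeR). Within a library wild type had 6.12 ± 0.392 Tdh counts per Gcat count and the knockout 4.70 ± 0.364 (SD, n = 3), and each knockout ratio was below each wild-type ratio; this difference was not tested.

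None of the serine synthesis transcripts passed the test. Phgdh, phosphoglycerate dehydrogenase, opens the route; it measured 212, 232 and 232 CPM in wild type and 247, 205 and 238 CPM in the knockout. Its log2 fold change was 0.03 ± 0.10 (adjusted p = 0.824, edgeR), and knockout libraries lay on both sides of the wild-type range. Psat1, phosphoserine aminotransferase, measured 398, 411 and 423 CPM against 368, 395 and 412 CPM, a log2 fold change of -0.07 ± 0.10 (adjusted p = 0.569, edgeR). The signs of these small differences depended on the processing: Phgdh was at -0.02 without knockout replicate 1 and Psat1 at 0.05 with total counts as library size, neither passing. The groups overlapped for both genes.

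Psph, the phosphatase that completes the route, was the least certain of the 10. It measured 50.1, 55.4 and 61.7 CPM in wild type and 55.0, 68.2 and 78.5 CPM in the knockout, where replicate 1 lay inside the wild-type range and the others above it. The log2 fold change was 0.27 ± 0.14 with an adjusted p of 0.113 (edgeR). It passed without knockout replicate 1 (0.40, adjusted p = 0.00271), with total counts as library size (0.39, adjusted p = 0.0219) and with the replicate number as a block (0.26, adjusted p = 0.0281, or 0.19 and 0.0157 with the length and GC trend removed as well). Without knockout replicate 3 it was lower (0.13, adjusted p = 0.405), and over all 16 alternatives its adjusted p ran from 0.00271 to 0.405. One exon of Psph overlaps the opposite-strand gene Cct6a by 452 bp in the annotation, and with no statement on strand in the counting, reads there cannot be assigned with certainty. Shorter opposite-strand overlaps, with the same uncertainty, were annotated for Shmt1 (Smcr8, 184 bp), Tdh (Gm17232, 38 bp), Mthfd1 (Gm47525, 37 bp) and Shmt2 (Ndufa4l2, 32 bp). Summed over Phgdh, Psat1 and Psph, wild type held 692 ± 29.0 CPM and the knockout 689 ± 34.3 CPM (SD, n = 3).

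Serine hydroxymethyltransferase, which converts serine to glycine, has a cytosolic and a mitochondrial form, and these moved apart. Shmt1, the cytosolic form, measured 190, 190 and 195 CPM in wild type and 226, 206 and 219 CPM in the knockout. The groups did not overlap, yet the log2 fold change of 0.18 ± 0.09 missed the threshold (adjusted p = 0.111, edgeR); 63.2% of all genes tested had groups that did not overlap. With total counts as library size it was 0.30 and passed (adjusted p = 0.0264). Shmt2, the mitochondrial form, measured 224, 234 and 230 CPM in wild type and 163, 143 and 151 CPM in the knockout. All knockout libraries lay below all wild-type libraries, and the log2 fold change was -0.59 ± 0.09 (adjusted p = 0.000314, edgeR).

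The 2 mitochondrial folate enzymes downstream of Shmt2 fell by a similar factor. Mthfd2 encodes the mitochondrial dehydrogenase and cyclohydrolase that oxidises the one-carbon unit. It measured 125, 127 and 135 CPM in wild type and 75.1, 78.9 and 83.0 CPM in the knockout, a log2 fold change of -0.71 ± 0.09 with an adjusted p of 7.55e-05 (edgeR). Mthfd1l encodes the mitochondrial formyltetrahydrofolate synthetase, which releases formate. It measured 211, 216 and 209 CPM in wild type and 163, 135 and 133 CPM in the knockout, where replicate 1 was the highest; the log2 fold change was -0.56 ± 0.11 (adjusted p = 0.000973, edgeR). For both genes the groups stood clear of each other.

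Mthfd1, which carries the corresponding activities in the cytosol as a single trifunctional protein, did not pass. It measured 396, 403 and 417 CPM in wild type and 499, 431 and 409 CPM in the knockout, with knockout replicate 1 above the rest and replicate 3 inside the wild-type range. The log2 fold change was 0.14 ± 0.11 (adjusted p = 0.292, edgeR). Mthfd2l, a paralog of Mthfd2 that is also mitochondrial, rose from 3.62 ± 0.552 to 9.28 ± 1.11 CPM (SD, n = 3), a log2 fold change of 1.35 ± 0.16 with an adjusted p of 3.74e-05 (edgeR). It remained the scarcer of the pair, at 0.0280 ± 0.00367 counts per Mthfd2 count in wild type and 0.117 ± 0.00947 in the knockout. The 3 mitochondrial genes Shmt2, Mthfd2 and Mthfd1l together went from 570 ± 9.03 to 375 ± 23.4 CPM, and the cytosolic pair Shmt1 and Mthfd1 from 597 ± 13.0 to 663 ± 53.4 CPM.

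**Figure D2:**
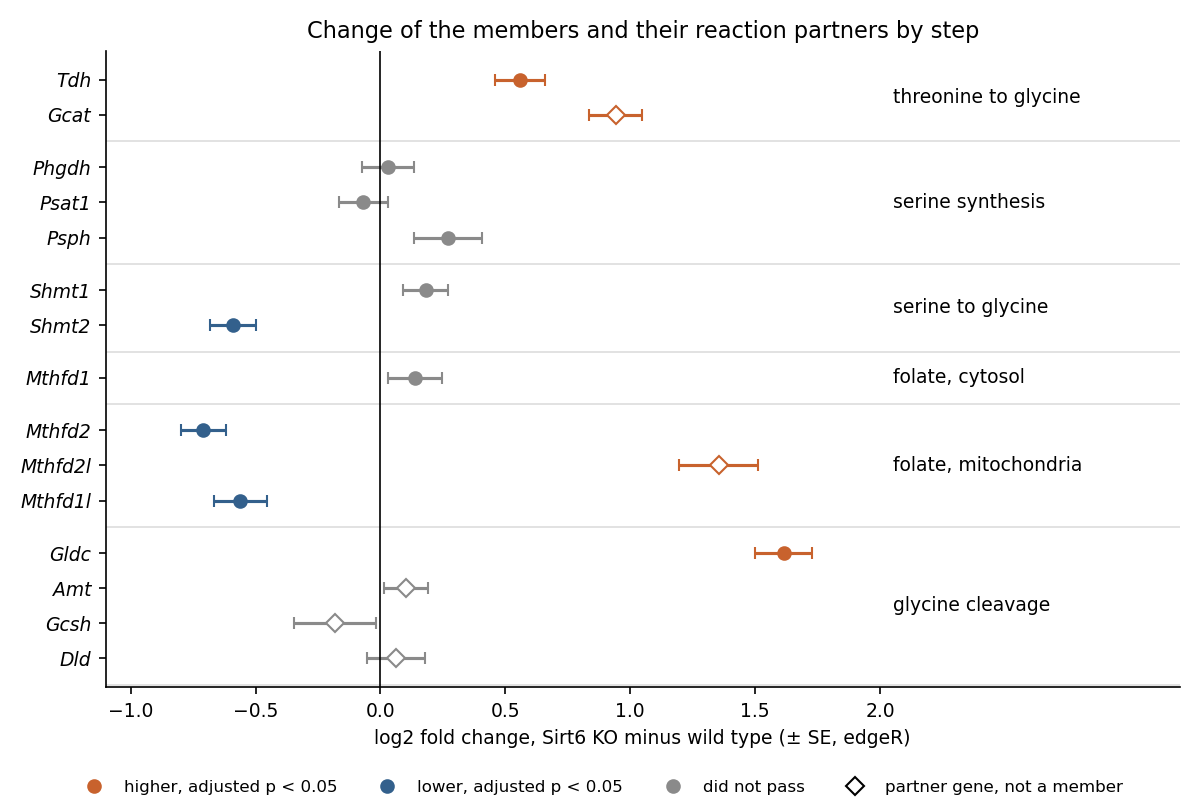
The x axis gives the log2 fold change of knockout against wild type with its SE (edgeR, 3 libraries per group), and the y axis lists genes by metabolic step; filled circles are the 10 genes, open diamonds their reaction partners. Tdh, Gcat, Mthfd2l and Gldc lie right of 0 and Shmt2, Mthfd2 and Mthfd1l left of it, while the serine synthesis genes lie within 0.27 of 0.

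Ratios of counts within a library, which do not depend on library scaling, put the mitochondrial transcript lower against the cytosolic one in each of 3 pairs. Shmt2 to Shmt1 was 1.18, 1.23 and 1.18 in wild type and 0.721, 0.694 and 0.689 in the knockout, so that the commoner transcript by count changed from Shmt2 to Shmt1. Mthfd2 to Mthfd1 went from 0.316, 0.315 and 0.325 to 0.151, 0.183 and 0.203. Mthfd1l to Mthfd1 went from 0.532, 0.536 and 0.502 to 0.328, 0.312 and 0.325. On the log2 scale the mean ratios changed by -0.77, -0.84 and -0.70, or 1.71-fold, 1.79-fold and 1.63-fold lower. In each pair all 3 knockout ratios lay below all 3 wild-type ratios, which in a two-sided exact permutation test of 3 against 3 gives p = 0.1, the smallest this design allows, and 0.1 after adjustment over the 3 pairs. The test therefore cannot reach 0.05 here. The pairs are not separate observations either, since the Mthfd2 and Mthfd1l ratios share Mthfd1. All ratios reuse the counts tested gene by gene above.

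**Figure D3:**
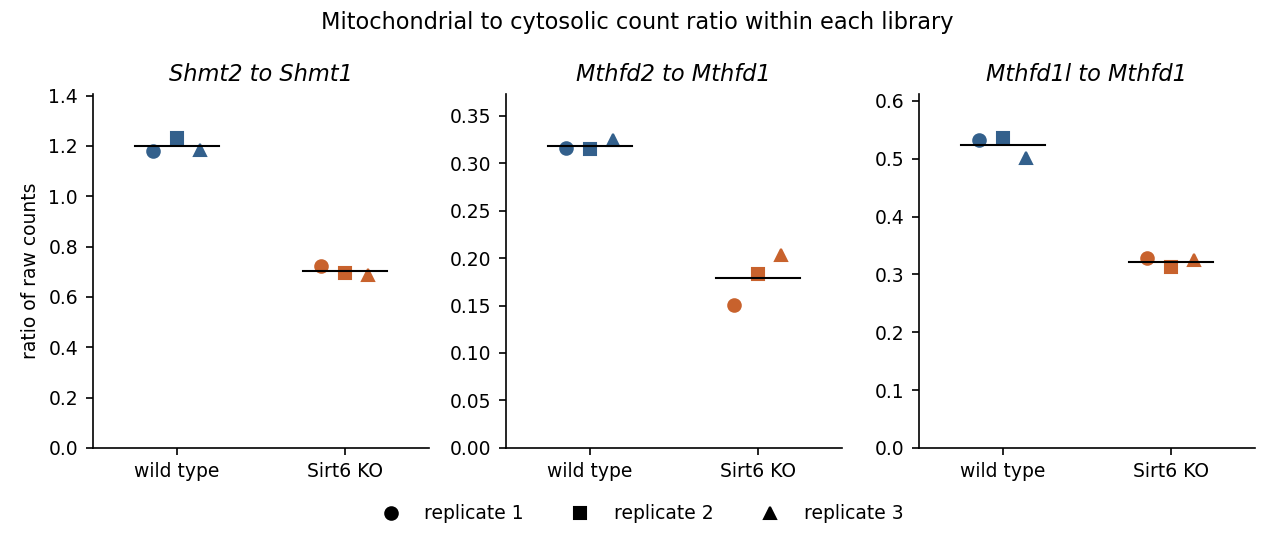
Each panel plots the ratio of raw counts of a mitochondrial gene to its cytosolic counterpart (y axis, from 0) in each wild-type and knockout library (x axis), with a line at each group's mean. All knockout ratios lie below all wild-type ratios, for example 0.689 to 0.721 against 1.18 to 1.23 for Shmt2 to Shmt1.

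Gldc, the glycine decarboxylase of the glycine cleavage system, changed the most of the 10. It measured 66.5, 65.9 and 66.1 CPM in wild type and 234, 195 and 179 CPM in the knockout. The wild-type libraries differed by less than 1 CPM and the lowest knockout library was far above them. The log2 fold change was 1.61 ± 0.11 with an adjusted p of 1.03e-06 (edgeR), and 10.6% of genes tested changed by more in either direction. The other subunits of the system did not pass: Amt, the aminomethyltransferase, was at 0.10 ± 0.09 (adjusted p = 0.339), Gcsh, the lipoyl carrier, at -0.18 ± 0.16 (adjusted p = 0.364) and Dld, a dehydrogenase shared with other complexes, at 0.06 ± 0.12 (adjusted p = 0.665, all edgeR). With the per-library trends on length and GC removed, Gcsh passed as lower (-0.29, adjusted p = 0.0101) and Dld changed sign and passed (-0.15, adjusted p = 0.0462). Counts of Gldc per Amt count were 0.957 ± 0.0259 (wild type) and 2.73 ± 0.348 (knockout; SD, n = 3), with no overlap; the difference was not tested.

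The knockout libraries differed more among themselves than the wild-type ones. The coefficient of variation of the 10 genes ran from 0.420% to 10.4% in wild type (median 2.72%) and from 4.58% to 17.5% in the knockout (median 8.10%). Over all genes tested the medians were 6.79% and 14.1%. The 10 genes had at least 1323 counts in each library, while the genes tested include far scarcer ones, so these medians are not like for like. A spread over 3 libraries is itself uncertain. Differences among the knockout libraries moved with transcript length. Between knockout replicates 1 and 3, the median log2 difference was -0.34 over 3222 genes shorter than 2 kb. It was 0.10 over 5131 genes of 2 to 4 kb and 0.33 over 4954 genes longer than 4 kb. Gldc (0.38), Mthfd1l (0.30) and Mthfd1 (0.29), the 3 longest of the 10, were higher in replicate 1. Gldc (3767 bp) and Mthfd1 (3241 bp) are in the class of 2 to 4 kb, and both differed by more than its median. Psph (-0.51), the shortest of the 10, was higher in replicate 3. With the length and GC trend of each library removed, the 5 calls among the 10 genes held, at 1.64 for Gldc, 0.50 for Tdh, -0.63 for Shmt2, -0.79 for Mthfd2 and -0.52 for Mthfd1l.

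The authors' deposited table of their own comparison gave the same 5 calls with the same signs. In the authors' deposited table the log2 fold change was 1.60 for Gldc, 0.56 for Tdh, -0.58 for Shmt2, -0.70 for Mthfd2 and -0.56 for Mthfd1l. Across the 10 genes the authors' deposited table differed from the edgeR values by at most 0.0155.

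In the wider pathway, 78 further genes were sorted into 8 lists, and 70 of them were tested. Of these, 18 rose (25.7%) and 22 fell (31.4%), against 27.9% and 27.8% of all genes tested; their median log2 fold change was -0.08. The lists were chosen with results of these data known.

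Among folate enzymes 3 of 10 tested genes rose and 1 fell, or 3 fell without knockout replicate 3 and with the replicate block. Aldh1l1, a cytosolic formyltetrahydrofolate dehydrogenase, rose from 2.56 ± 0.790 to 9.86 ± 1.47 CPM (SD, n = 3), with Mthfd2l as above. In folate uptake and transport 1 of 5 rose and 3 fell, or 1 fell without wild-type replicate 1. Folr1, a folate receptor at the cell surface, measured 54.9, 57.1 and 61.2 CPM in wild type and 11.2, 15.1 and 17.6 CPM in the knockout (-1.99 ± 0.15, adjusted p = 1.77e-06, edgeR). All its knockout values lay far below the wild-type ones. Folr2 was near 1 CPM in wild type and fell as well (-1.42), though not without wild-type replicate 1 (-0.99, adjusted p = 0.0515, edgeR). Slc25a32, the mitochondrial folate carrier, rose by 0.55 ± 0.11.

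In the methionine cycle 3 of 9 tested genes rose and 3 fell, or 1 fell with total counts as library size. Mat2a, which makes S-adenosylmethionine, fell from 510 ± 4.80 to 341 ± 4.74 CPM (-0.58 ± 0.09, adjusted p = 0.000339, edgeR). Mtap, of methionine salvage, rose by 0.55 ± 0.10, and Gnmt, glycine N-methyltransferase, rose by 2.17 ± 0.23 from 0.885 to 3.96 CPM. Amd1 was listed at 0 in every library, which alone does not show that the gene was silent. Among genes that use serine or glycine 2 of 9 rose and 2 fell. In that list 4 rose without knockout replicate 1, and 1 rose without knockout replicate 2 or without any single wild-type replicate; 1 fell without wild-type replicate 1 or knockout replicate 2. Gatm, which starts creatine synthesis from glycine, rose from 1.01 ± 0.232 to 10.5 ± 0.923 CPM (3.35 ± 0.18), and Cth, of transsulfuration, had a log2 fold change of -1.70. Srr, serine racemase, fell (-0.41), but did not pass with total counts as library size (-0.29, adjusted p = 0.117), without wild-type replicate 1 (adjusted p = 0.116) or without knockout replicate 2 (adjusted p = 0.0579, edgeR).

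Of 9 tested transporters of serine and glycine 2 rose and 5 fell, or 1 rose without any single wild-type replicate. Slc38a1, a neutral amino acid transporter, fell from 229 ± 10.4 to 92.1 ± 11.1 CPM (-1.31 ± 0.11). Slc6a9, the glycine transporter GlyT1, and Slc25a38, a mitochondrial glycine carrier, fell by 1.17 and 0.45 on the log2 scale. Of 12 genes of de novo purine synthesis, a user of formyl units, 3 rose and 2 fell, or 5 rose and 4 fell without knockout replicate 1. Atic, whose product takes up a formyl group, fell from 358 ± 4.91 to 251 ± 18.4 CPM (-0.51 ± 0.10), while Prps2 rose by 0.66 ± 0.09. Adssl1, the adenylosuccinate synthase typical of muscle, rose by 1.55 ± 0.19 from a low level.

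Of 12 regulators tied to these genes 3 rose and 6 fell. Atf4, the transcription factor of the amino acid response and a known activator of serine and mitochondrial folate genes, measured 296, 293 and 314 CPM in wild type and 117, 125 and 150 CPM in the knockout (-1.21 ± 0.11, adjusted p = 7.46e-06, edgeR). Every knockout library was below every wild-type one. Myc fell from 38.7 ± 2.20 to 11.0 ± 1.11 CPM (-1.81 ± 0.11) and its relative Mycn rose from 87.1 ± 1.11 to 159 ± 10.9 CPM (0.87 ± 0.09). Whether these differences bear on the 10 enzymes was not tested.

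**Figure D4:**
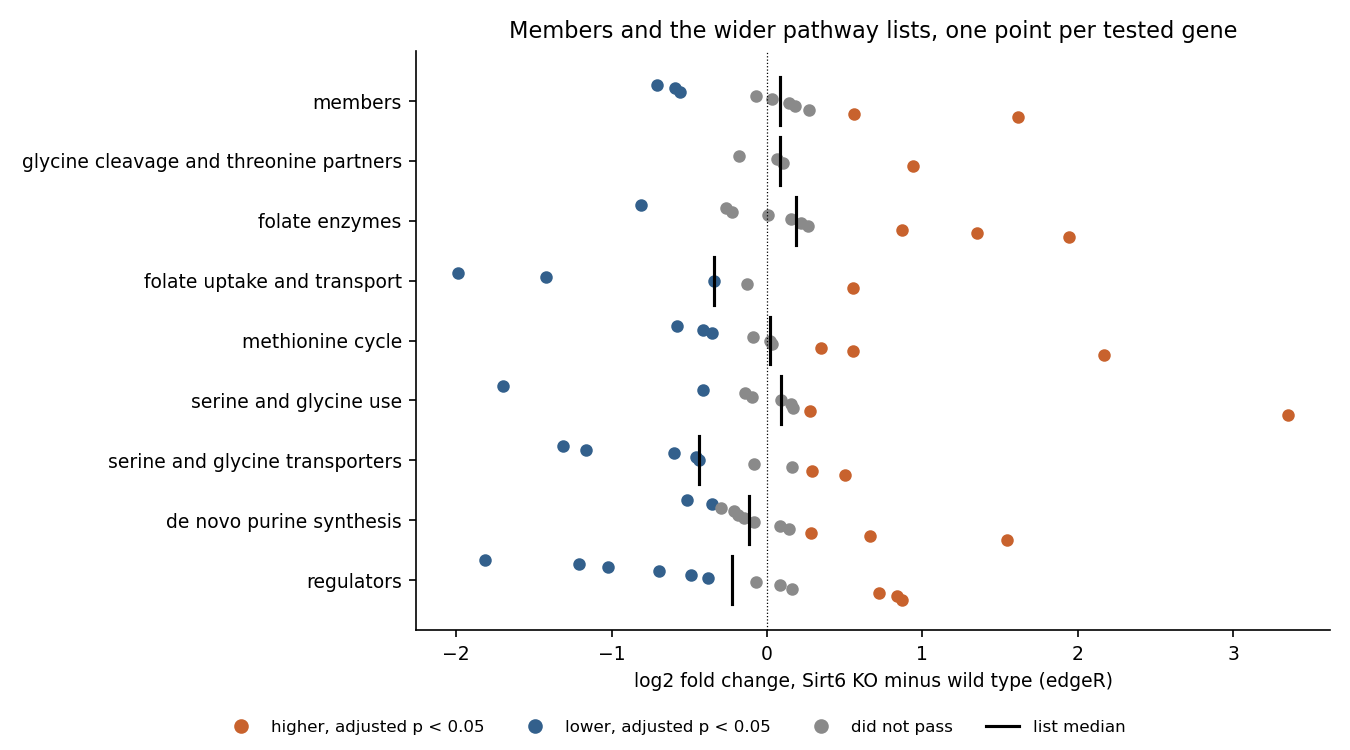
Each point is the log2 fold change (x axis) of 1 tested gene in the set of 10 or in 1 of the 8 wider lists (y axis), coloured by whether it passed an adjusted p of 0.05; vertical bars are list medians. Genes in each list lie on both sides of 0, from -1.99 for Folr1 to 3.35 for Gatm.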

How the data were processed

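Total RNA of mouse embryonic stem cells had been sequenced, and the deposited table holds whole-number counts per gene symbol with no normalization, per the file headers. The submitters' processing notes name TopHat2 2.0.10, HTSeq 0.6.1, DESeq2 and mm9, with no role or order; annotation, strand and filters are not stated. The other deposited table holds, per the file headers, the authors' p-values, their base mean signal, a Wald score, and the log2 fold change and its standard error. Groups and replicate numbers came from sample titles, and columns were matched by name.

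Counts were tested with edgeR 4.0.16 in R 4.3.3 (filterByExpr, TMM, glmQLFit and glmQLFTest, two-sided); SE values were derived from F and the fold change. Total counts per library ran from 20107037 to 29267115. Over 5 sets of simulated counts for 14988 genes, the test recovered 64.8% of 1.5-fold and 96% of 2-fold changes. Of its calls there, 5.04% were unchanged genes. Changes were simulated in a small random part of the genes, none of them among the scarcest in wild type. These rates describe the simulated counts only, and the recovery rates only genes of that kind. Whether they hold for the measured libraries, where 55.7% of genes tested were called, was not tested. Libraries differed by more than sampling noise in every pair (lowest chi-square per degree of freedom 3.74). Exon lengths came from GENCODE M21 (GRCm38), matched by symbol for 21706 rows; 93.6% of genes tested had a length and GC value.

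The genes named were the 10 enzymes, up to 3 called genes per wider list with the smallest adjusted p, reaction partners and set regulators (Atf4, Myc). A gene that this rule selects is not reported here. The members and lists were chosen with earlier results of these data known. Alternatives were other library scalings, filters and tests (DESeq2 1.42.0, limma-voom 3.58.1), the replicate block, removal of length and GC trends, and leaving out each replicate.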

Additional observations from a re-analysis of the deposited data

How the results depend on the processing

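Gldc, Tdh, Shmt2, Mthfd2 and Mthfd1l kept their direction and passed the threshold under each of the 16 alternatives, with log2 fold changes of 1.51 to 1.74, 0.49 to 0.68, -0.63 to -0.47, -0.79 to -0.59 and -0.66 to -0.43. With total counts in place of TMM the median gene shifted by 0.12 (log2), 5114 genes rose and 3101 fell, 62.3% of calls higher against 50.1%, and 4 of the 10 members rose in place of 2, Psph and Shmt1 joining. Rn45s, a ribosomal RNA precursor, held 7.54 to 9.23% of counts in the wild-type libraries and 3.30 to 4.91% in the knockout libraries. With TMM and library sizes that left out Rn45s, Rmrp and Rpph1, Psph (adjusted p = 0.0990) and Shmt1 (adjusted p = 0.0830, both edgeR) did not pass. Whether the share of Rn45s bears on the shift was not tested. Over the 16 alternatives, 14 to 21 of the wider genes rose and 15 to 29 fell. Counts per list moved further: with the length and GC trend removed, 2 glycine cleavage genes, 2 folate enzymes and 4 purine synthesis genes fell (2, 3 and 5 with the replicate block as well, where 4 genes of serine and glycine use rose), 5 regulators rose and 1 transporter rose; with total counts, 4 genes of serine and glycine use rose and 1 fell, and 1 purine synthesis gene fell. Signs that changed were all of small differences. Phgdh was -0.0252 after trend removal by length and GC, -0.0265 with the replicate block as well, and ranged from -0.0193 (without knockout replicate 3) to 0.1086 (without knockout replicate 2) as single replicates were left out, being below 0 without wild-type replicate 1 (-0.0046) and knockout replicate 1 (-0.0178) too; Psat1 was at 0.0520 with total counts; Gcsh ranged from -0.370 to 0.0039, the latter without knockout replicate 1; Dld was at -0.1505 with the trend removed, with or without the replicate block, and ranged from -0.0278 without knockout replicate 3 to 0.183 without knockout replicate 1. The cause of these changes was not tested. Same-numbered libraries did not deviate together in every pair (correlations of deviations 0.21, -0.03 and 0.20), so the numbers are not taken to pair them; with the replicate block 4670 genes rose and 4682 fell, and Psph became the third member to rise. For the ratios within a library, pairing leaves the mean differences (-0.77, -0.84 and -0.70) the same by arithmetic and is no check of them. Depth did not limit the 10 members, whose lowest count in a library was 1323.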
